A study of Mus musculus with 2 samples.

Results

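The genes of the nuclear pore and of transport through it were examined in the transcription map of C2C12 myoblasts. The set holds 35 genes: 29 genes of nucleoporins, 5 importins and 1 exportin. They were found by their gene symbols, and all their RefSeq entries were kept, which gave 41 of the 24165 entries in the table and 35 of its 20128 symbols. C2C12 is an established mouse line of myoblasts, which multiply in rich medium and can fuse into muscle fibres; being a single line, it stands for cultured myoblasts and not for muscle tissue. GRO-seq (global run-on sequencing) lets engaged RNA polymerases resume transcription in isolated nuclei with bromouridine, and the RNA that took it up is then captured and sequenced. All cells belonged to a single group, with no genetic change named in the labels, untreated and collected at 80% confluency, and 2 replicate libraries were made from them with 4 plates per nuclei isolation. The authors pooled both libraries and deposited a single gene activity per entry in RPKmM, the sense-strand reads of the gene body per kilobase of mappable sequence scaled to sequencing depth, or the word Inactive for entries whose read density did not pass their test against gene deserts.

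No replicate error could be given for any value, and no test was made. The table holds no read numbers and no mappable lengths, so no counting error was computed, and the error given below is that of rounding alone, 0.005 to either side of a value printed to 2 decimals. The identity of the cells was checked on marker genes. All 7 myoblast markers were active, from 2.39 for Myod1, the myogenic transcription factor, to 72.45 for Des, the muscle intermediate filament. Of 14 markers of blood, endothelium, epithelium, neurons and liver, 6 were active, at no more than 0.02. The 5 genes of differentiated muscle had a median of 0.2, with Myh2 at 0.01 and Acta1 at 6.85, so some genes of muscle fibres were transcribed in these cultures. The part of such cells in the values below was not tested.

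Nuclear pores are large assemblies set in the nuclear envelope, built from nucleoporins in many copies. Outer rings on both faces and an inner ring form the scaffold, membrane nucleoporins anchor it, and nucleoporins rich in phenylalanine and glycine fill the central channel. Filaments reach into the cytoplasm, and a basket reaches into the nucleus. Importin alpha binds the nuclear localization signal of a cargo and importin beta carries both through the channel, while the exportin Xpo1 carries cargo with a nuclear export signal outward, and the Ran GTPase gives both routes their direction.

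All 35 genes were listed as active in the myoblasts, most of them at activities within a narrow range. The 41 entries were active without exception, against 70.2% of all entries and 68.7% of all gene symbols. Their median activity was 2.21 RPKmM (quartiles 1.27 and 3.03), which was 2.54 times the median of 0.87 over all 16957 active entries (quartiles 0.22 and 1.99). This ratio depended on the summary: it was 3.47 and 3.71 with geometric means and pseudocounts of 0.01 and 0.001, and 7.13 with inactive entries kept at 0. Taken by gene, with the median of its entries, 24 genes lay between 1.07 and 3.12. Far above them stood 4 genes: Kpna4 at 25.99, Kpnb1 at 25.32, Tpr at 15.56 and Ranbp2 at 14.35. The next was Xpo1, at 6.9. Far below stood a single gene, Nup210, at 0.01, while the next lowest entry, of Nup35, had 0.56.

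Of the 41 entries, 36 reached an activity of at least 1 (87.8%), against 32.3% of all entries, inactive ones included. At 10 or above were 4 entries (9.76%), against 2.03% of all entries. At 0.01 or below was 1 entry (2.44%), against 6.99% of active entries. The upper quartile of active entries was exceeded by 23 entries (56.1%), and 17 lay between the quartiles. By gene, 32 of 35 were above the active median and 3 below it, namely Nup133, Nup35 and Nup210.

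**Figure D1:**
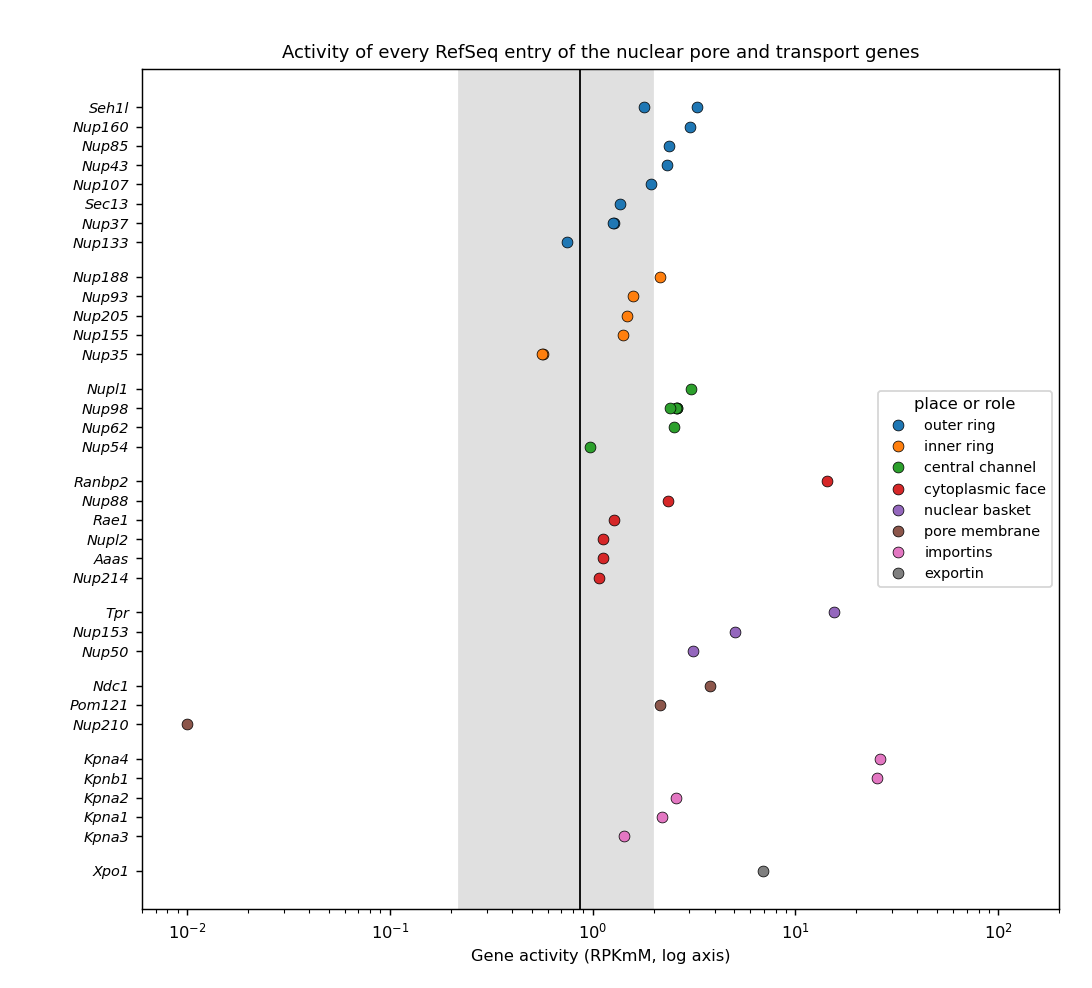
Gene activity (horizontal log axis, RPKmM) of each of the 41 RefSeq entries, by gene and coloured by place in the pore or role; the black line is the median of all active entries (0.87) and the grey band spans their quartiles (0.22 to 1.99). Most points sit between 1 and 4, Kpna4, Kpnb1, Tpr and Ranbp2 lie above 10, and Nup210 lies alone at 0.01.

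The DNA before the starts of the 4 most active genes and of the least active gene is shown, since these 5 genes span the range of activities. Each line holds the 250 bases before the RefSeq start, read 5′ to 3′ in the direction of the gene. Capitals mark matches to a GC box (GGGCGG, or CCGCCC on the other strand), a CCAAT box (CCAAT, or ATTGG on the other strand) or a TATA box (TATAAA). The positions are chr3:69127093-69127342 (minus strand) for Kpna4, chr11:97187893-97188142 (minus) for Kpnb1, chr1:150392588-150392837 (plus) for Tpr, chr10:58446602-58446851 (plus) for Ranbp2 and chr6:91116827-91117076 (minus) for Nup210, in build GRCm38.p6, which differs from the mm9 build of the activity data.
Kpna4: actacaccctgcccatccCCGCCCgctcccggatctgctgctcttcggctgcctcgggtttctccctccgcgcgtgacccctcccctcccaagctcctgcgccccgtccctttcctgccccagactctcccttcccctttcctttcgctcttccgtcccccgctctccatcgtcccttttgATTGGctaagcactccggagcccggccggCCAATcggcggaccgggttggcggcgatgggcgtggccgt
Kpnb1: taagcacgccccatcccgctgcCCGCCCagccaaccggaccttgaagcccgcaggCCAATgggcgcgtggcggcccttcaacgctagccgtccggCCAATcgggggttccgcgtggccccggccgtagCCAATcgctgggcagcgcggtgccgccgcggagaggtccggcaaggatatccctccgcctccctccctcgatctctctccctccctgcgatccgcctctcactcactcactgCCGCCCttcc
Tpr: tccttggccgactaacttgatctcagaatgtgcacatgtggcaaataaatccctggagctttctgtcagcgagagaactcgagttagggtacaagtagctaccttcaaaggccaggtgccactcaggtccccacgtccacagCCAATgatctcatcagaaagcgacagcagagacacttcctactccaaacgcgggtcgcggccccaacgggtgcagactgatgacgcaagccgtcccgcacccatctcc
Ranbp2: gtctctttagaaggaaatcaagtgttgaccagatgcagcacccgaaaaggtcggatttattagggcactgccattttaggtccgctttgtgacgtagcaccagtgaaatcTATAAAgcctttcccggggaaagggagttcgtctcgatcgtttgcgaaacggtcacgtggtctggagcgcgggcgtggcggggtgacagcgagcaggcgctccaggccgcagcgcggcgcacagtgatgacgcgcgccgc
Nup210: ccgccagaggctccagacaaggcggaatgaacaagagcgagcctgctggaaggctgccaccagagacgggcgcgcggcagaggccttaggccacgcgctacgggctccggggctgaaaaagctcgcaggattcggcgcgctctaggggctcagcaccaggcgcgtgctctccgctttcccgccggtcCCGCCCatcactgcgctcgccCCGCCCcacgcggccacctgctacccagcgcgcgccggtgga

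The promoters of Kpna4 and Kpnb1, the 2 importin genes at the top, both held CCAAT boxes in these windows. So did those of Kpna2, at 2.59, and Xpo1, at 6.9, in windows that also took in 50 bases after the start. Of the windows of active genes with that width, 37.4% held a CCAAT box. The promoter of Kpna4 had CCAAT boxes starting 69 and 40 bases before the start and a GC box 232 bases before it, with 24 CpG dinucleotides and 68.4% G and C. That of Kpnb1 had CCAAT boxes 195, 155 and 122 bases before the start and GC boxes at 228 and 10, with 28 CpG and 70.8% G and C. Tpr, with 13 CpG and 55.2% G and C, had a CCAAT box 108 bases before the start. Ranbp2 had no GC or CCAAT box here and a TATA match 140 bases before the start, with 25 CpG and 58.0% G and C. The window of Nup210, the gene transcribed least, was as rich in these letters as those of the importins: it held 30 CpG, 71.2% G and C, and GC boxes 63 and 42 bases before the start.

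The importin genes ranged from the most active of all 35 genes to genes in the middle of the set. Kpna4 (NM_008467), an importin alpha, had 25.99 RPKmM, which put it at rank 147 of all entries, above 99.1% of active ones. Kpnb1 (NM_008379), the importin beta that pairs with importin alpha, had 25.32 and rank 152. The other importin alpha genes lay an order of magnitude lower, with Kpna2 at 2.59, Kpna1 at 2.21 and Kpna3 at 1.43. Kpna4 was thus 10.0 times Kpna2 and 18.2 times Kpna3, while the values of Kpna4 and Kpnb1 lay close together. Xpo1 (NM_001035226), the main exportin for protein cargo, had 6.9, at rank 807 and above 95.2% of active entries. The 6 genes of carriers had a median of 4.745, and the 35 entries of nucleoporins a median of 2.16.

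In the nuclear basket, all 3 genes were above the upper quartile of active entries. Tpr (NM_133780), the coiled-coil protein that forms the basket filaments, had 15.56, at rank 279. Nup153, which ties the basket to the pore, had 5.06, and Nup50, which binds importin alpha at the basket, had 3.12. The median of 5.06 was the highest of the pore's substructures, and Tpr was 3.08 times Nup153.

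At the cytoplasmic face a single gene stood out. Ranbp2 (NM_011240), the giant filament protein that binds Ran and acts as a SUMO ligase, had 14.35, at rank 313. Nup88 had 2.36, so that Ranbp2 was 6.08 times the next gene of this group. The other 4 genes lay close together: Rae1, an mRNA export factor, at 1.27, Nupl2 at 1.13, Aaas, the gene mutated in triple A syndrome, at 1.12, and Nup214, the partner of Nup88, at 1.07. The group median was 1.2, the lowest of the substructures, although the group holds the second most active nucleoporin gene.

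The entries of the outer ring, or Y complex, had activities from 0.75 to 3.28. Nup160 had 3.03, Nup85 2.37, Nup43 2.34, Nup107 1.94 and Sec13, which also serves in COPII vesicle coats, 1.36. Seh1l had entries at 3.28 (NM_001039088) and 1.8 (NM_028112), and Nup37 at 1.27 and 1.26. Nup133 was lowest, at 0.75, and lay under the active median. The 10 entries had a median of 1.87 and differed by 4.37 times from lowest to highest, or by 2.6 times without Nup133. With all their entries, the inner ring differed by 3.86 times and the central channel by 3.15 times.

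The inner ring had a median of 1.445. The large scaffold genes Nup188 and Nup205 had 2.16 and 1.47, Nup93, which links the ring to the central channel, had 1.58, and Nup155 had 1.42. Nup35, which binds the pore membrane, was lowest, with entries at 0.57 and 0.56, above 39.2% and 38.8% of active entries. The ring's highest entry was thus 3.86 times its lowest.

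In the central channel, Nup62 and its partner Nupl1 had 2.51 and 3.06, while Nup54, the other partner in the same complex, had 0.97. Nup98, whose transcript also encodes a protein of the outer ring, had 4 entries at 2.62, 2.61, 2.57 and 2.41. The median of these 7 entries was 2.57.

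The membrane nucleoporins differed most. Ndc1, a multipass protein of the pore membrane, had 3.78, and Pom121, another anchor of the pore, had 2.16. Nup210 (NM_018815), a membrane glycoprotein known for its role in muscle differentiation, had 0.01, above 0.908% of active entries only and at rank 15772. A value listed at 0.01 lies between 0.005 and 0.015, so Ndc1 was 378 times Nup210, or 252 to 756 times over the range that rounding allows. The entry was nevertheless listed as active, so it passed the authors' test against gene deserts. Its value equals that of 5 markers of other tissues, Cd3e, Pecam1, Tek, Syt1 and Apob, which were also listed as active at 0.01.

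Most of the 35 genes had a single entry, and 4 had several. Entries of a gene overlap and are not replicates. The highest entry was 1.82 times the lowest for Seh1l, 1.09 times for Nup98, 1.02 times for Nup35 and 1.01 times for Nup37. A ratio of 1.5 or more was thus found for 1 of 4 genes (25%), against 22.1% of the 2273 symbols with several active entries above 0.

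Long and short genes were found at most levels of activity. In the mm9 annotation the 35 genes were 10.9 kb (Kpna2) to 103.8 kb (Nup210) long, with a median of 42.2 kb against 23.9 kb for the 13170 active genes with 1 place in the annotation. Across the 35 genes Spearman's correlation of length and activity was 0.0214, and across the 13170 it was -0.0346; genes are not independent samples, and all values come from the same pool of reads. Kpna4 lies on chromosome 3 (68871071 to 68931035, minus strand, 60 kb), Kpnb1 on chromosome 11 (97021028 to 97049195, minus, 28.2 kb), Tpr on chromosome 1 (152239968 to 152297062, plus, 57.1 kb), Ranbp2 on chromosome 10 (57909600 to 57956903, plus, 47.3 kb) and Nup210 on chromosome 6 (90963062 to 91066823, minus). These coordinates are of mm9.

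**Figure D2:**
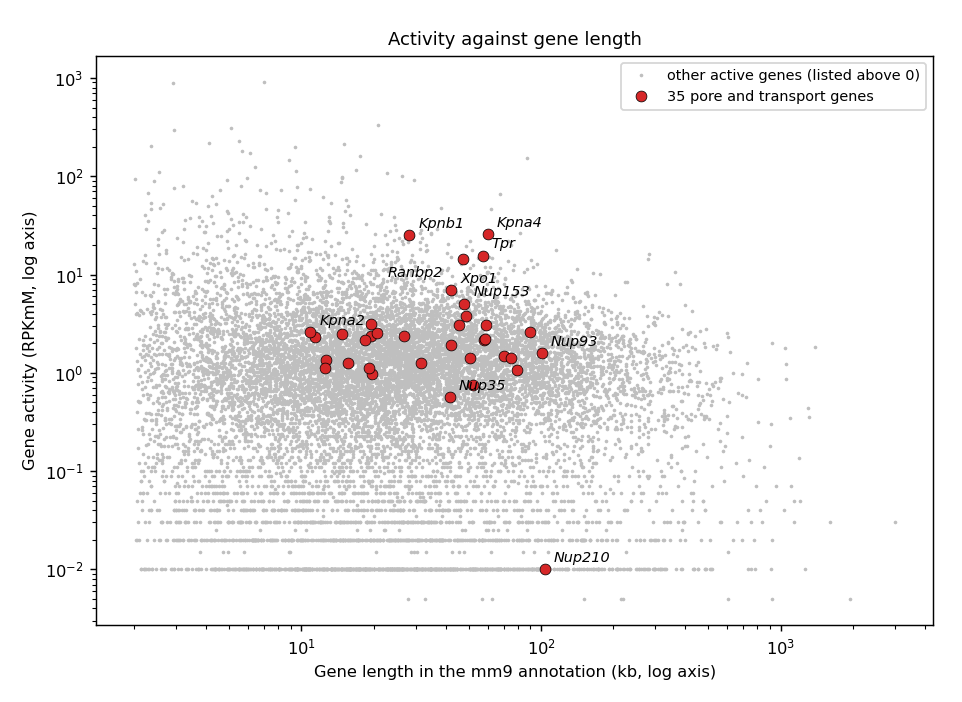
Gene activity (vertical log axis, RPKmM; median of the gene's active entries) against gene length in mm9 (horizontal log axis, kb) for the 35 genes in red and other active genes listed above 0 in grey. The 4 most active genes are 28.2 to 60 kb long, and Nup210, at 103.8 kb, is the longest of the 35 and the lowest in activity.

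Activity multiplied by the length of the gene body gives the share of reads that a gene would take, in reads scaled to sequencing depth (RPM, on the scale of RPKM), if all its bases were mappable. This product depends on length and ranks genes differently from activity per length. Its sum over the 35 genes was 6371 RPM. Kpna4 made up 1533 of these (24.1% of the sum), Tpr 873, Kpnb1 688, Ranbp2 664 and Xpo1 284, and these 5 genes together made up 63.4%. The products depend on which transcript sets the length: with the shortest annotated transcript of at least 2 kb the sum was 3465 RPM, Kpna4 had 804, Tpr 17.3 and Xpo1 12.5, while Kpnb1 and Ranbp2 kept 688 and 664, so that Tpr and Xpo1 were no longer among the 5 highest. By full gene length, Nup153 had 238, Nup98 230, Ndc1 180, Nup160 176 and Nup93 157. With the shortest transcripts Nup153 kept 238, while Nup98 had 125, Ndc1 17.1, Nup160 4.03 and Nup93 137. Nup93 was 100.5 kb long, and its activity of 1.58 was below the median of the set. Kpna2, the shortest of the genes, had 25.7 by full length. The lowest products by full length were Sec13 at 15.9, Aaas at 12.9 and Nup210 at 1.03 (0.514 to 1.54 by rounding). The median of 70.4 compared with 18.2 over active genes, which 31 of the 35 exceeded. With the shortest transcripts for both, the medians were 20.2 and 4.85, and 25 of the 35 genes exceeded the latter.

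The surroundings of the genes bear on what their values count. A protein-coding gene on the opposite strand started within 1000 bases upstream of 4 of the 35 genes (11.4%), against 10.3% of active genes. Nup37, at 1.26 and 1.27, started 51 bases from Parpbp, which had 1.65. Nup188, at 2.16, started 43 bases from Dolk, the dolichol kinase, which had 1.54. Nup98 lay 88 bases from Pgap2, a gene of GPI anchor remodelling with entries at 0.93 and 1.23, and Nup88, at 2.36, lay 240 bases from Rpain, which had 0.34. In 3 of these 4 pairs the pore gene was thus the more active, and in the pair of Nup37 and Parpbp it was the less active.

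Another annotated gene overlapped on the same strand for 8 of the 35 genes (22.9%), against 13.8% of active genes, and reads in bases that transcripts share cannot be told apart. For 3 of them it was a protein-coding gene: the annotated span of Dusp19 shared 15126 bases with that of Nup35, Phyhd1 shared 14684 bases with Nup188, and Il4i1 shared 14440 bases with Nup62. The spans join all annotated transcripts of a gene, and the deposited table gives no positions. Its entries for Phyhd1, at 0.27 and 0.28, and Il4i1, at 0.05, may thus come from transcripts that do not reach into the shared bases. Dusp19 had 0.32, and its annotated span is 15317 bases long. An entry of at least 2 kb within that span has to reach into the bases shared with Nup35. For Kpna4, Seh1l, Nup205, Nupl1 and Nup214 the overlapping genes were small RNAs or a pseudogene of 110 to 1406 bases. Among the 4 most active genes, only Kpna4 had such an overlap, with a small nucleolar RNA gene of 343 bases.

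Copies of a transcript elsewhere in the genome can take reads from its exons or leave them without a unique position. Close copies, of at least 50% of the transcript and at most 5% divergence, were found for 3 genes. Kpna2 had 3 copies without introns, on chromosomes 17, 3 and 4, with divergences of 0.1%, 0.25% and 2.73%. Nup35 had a copy on chromosome 7 at 0.45%, and Nup54 a copy without introns on chromosome 1 at 1.92%. Exons made up 26.3% of the length of Kpna2, 14.6% of that of Nup54 and 8.08% of that of Nup35, which bounds what the copies without introns of Kpna2 and Nup54 can share. The copy of Nup35 was not free of gaps when its transcript was aligned, and whether it also holds intron sequence was not tested. How far the copies changed these 3 values was not tested.

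Promoter windows of 300 bases, 250 before and 50 after a RefSeq start, were at hand for 29 of the 35 genes, as 32 windows; Kpna1, Kpna3, Nup35, Nup43, Nup85 and Seh1l were without one. Members were matched to windows by symbol or synonym, but active genes by symbol alone, which gave windows of 10513 active genes. The 32 windows had a median of 64.2% G and C (range 40.3 to 74.7), against 60.3% in the 13423 windows of active genes and 52.7% in all 32851. The median number of CpG was 27.5, against 19 in active genes and 7 in all. The lowest of the 32 belonged to a second start of Nup93, with 3 CpG and 40.3% G and C, and the highest number, 45, to Nup153.

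Exact matches to 7 motifs were counted on both strands; none of the motifs contains another. The GC box was present in 22 of 32 windows (68.8%, exact 95% interval 50 to 83.9), against 60.1% in active genes and 35.7% in all windows. The CCAAT box was present in 16 (50%, 31.9 to 68.1), against 37.4% in active genes and also 37.4% in all. The Ets motif (CCGGAAG) was present in 8 (25%, 11.5 to 43.4), against 15.8% and 8.86%. The core of the NRF1 motif (GCGCATGC) was present in 4 (12.5%, 3.51 to 29.0), in Nup107, Nup50, Nup62 and Nupl1, against 4.87% and 2.71%.

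Among the scarcer motifs, the TATA box was present in 3 windows (9.38%, 1.98 to 25), of Nup160, Ranbp2 and the second start of Nup93, against 7.45% in active genes and 13.6% in all. The cyclic AMP response element (TGACGTCA) was present in 3, of Nup133, Nup214 and Nupl2, against 3.01% and 1.79%. The E-box bound by MyoD (CAGCTG) was present in 1 window, of Ndc1 (3.12%, 0.0791 to 16.2), against 15.9% in active genes and 16.3% in all. For each of the 7 motifs the share in active genes lay within the interval of the pore and transport genes. The intervals cover counting error only, and windows of 3 genes come in pairs. A match describes the letters and not a bound site.

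**Figure D3:**
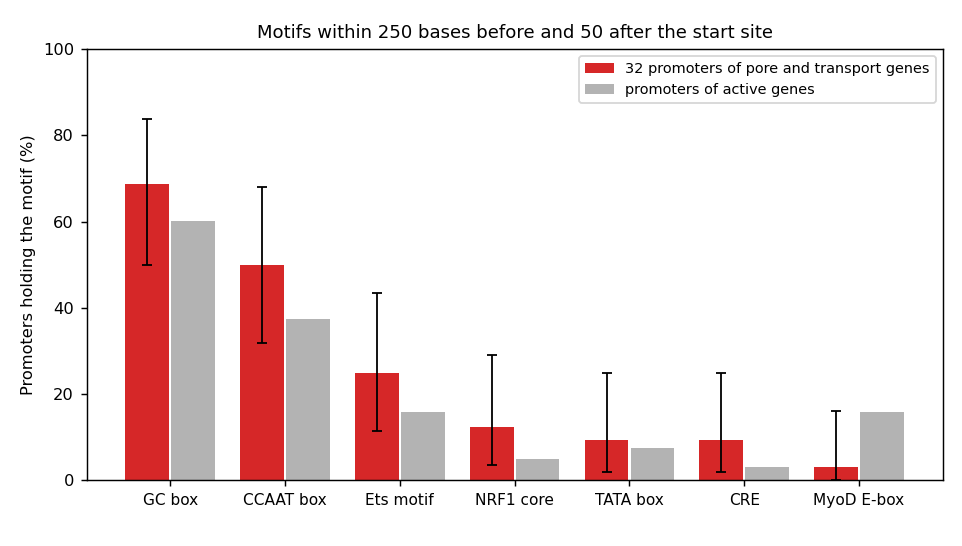
Percentage of promoter windows (250 bases before to 50 after the start) that hold each motif, for the 32 windows of pore and transport genes in red, with exact 95% binomial intervals, and for the 13423 windows of active genes in grey. Each grey bar ends within the interval of the red bar beside it.

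A further 48 genes of nuclear transport, not among the 35, were set beside them. Of these, 46 were active, and their 56 active entries had a median of 2.05, or 2.36 times the active median, and 42 of all 59 entries (71.2%) reached 1. Among 3 other pore genes, Ahctf1, which recruits the outer ring to chromatin, had 4.38, Gle1, an mRNA export factor, had 0.55, and Nup210l, the paralogue of Nup210, had 0.51. The value of Nup210l was therefore above that of Nup210 itself.

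No other import receptor reached the level of Kpna4 or Kpnb1. Of 13 such genes 12 were active, with a median of 3.575 over entries, and the highest was Ipo4 at 7.82, so that Kpnb1 was 3.24 times as active. Ranbp17 was lowest, at 0.02, and Kpna7, another importin alpha, was inactive. Among 6 other export receptors, all active, Cse1l, which returns importin alpha to the cytoplasm, was highest at 4.97 and Xpo7 lowest at 1.88, and Xpo1 was 1.39 times Cse1l. The 7 genes of the Ran cycle had a median of 2.83, from Rangrf at 0.35 to Ran itself at 5.62. The 19 genes of mRNA export had the lowest median of the larger lists, 1.4, with Ddx39b, a helicase of the export complex, highest at 11.6 and 11.55. Of that list Nxf7 was lowest among active genes at 0.08, and Nxf2, a paralogue of the export receptor Nxf1, was inactive in both entries.

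The levels were also set beside those of the lamina and of another large complex. The 19 entries of 13 genes of lamins and the inner envelope were all active, from 0.88 to 23.24, with a median of 4.42 and 18 entries at 1 or more. Proteasome subunits, 39 genes with 40 entries, had 36 active entries with a median of 2.83 (0.35 to 12.29), and 35 entries (87.5%) reached 1. The median of the pore and transport entries, 2.21, was below both, while their highest value, 25.99, was above both ranges.

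**Figure D4:**
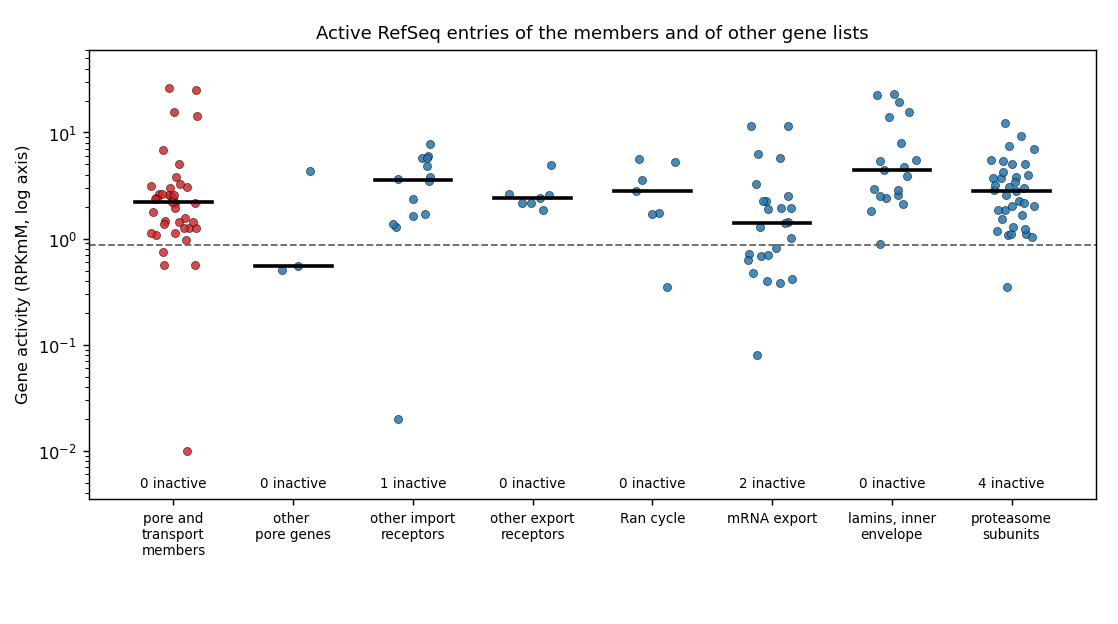
Gene activity (vertical log axis, RPKmM) of the active RefSeq entries of the 35 pore and transport genes in red and of other gene lists in blue; thick bars are medians, the dashed line is the median of all active entries (0.87), and the numbers below count inactive entries. The red points reach from 0.01 to 25.99 around a median of 2.21, and the lamins and inner envelope have the highest median, 4.42.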

How the data were processed

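The authors made 2 replicate GRO-seq libraries from untreated C2C12 cells. The submitters' processing notes name CASAVA 1.8, Bowtie2 and mm9. Reads mapped to a single place were kept by the authors, those in rRNA or tRNA repeats dropped, and both libraries pooled; they deposited 1 activity per RefSeq entry of at least 2 kb on chromosomes 1 to 19 and X. It is a read density in RPKmM, that is RPKM over mappable bases, counted from 1 kb past the start to the end of the gene, and rounding merges the lowest values. Because 7208 cells of the deposited column hold the word Inactive, its unit was entered as other and was not tested against the values; the reading rests on the column name and the methods. Pooling hides variation between libraries, and the depth per sample is not in the table.

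The members, gene lists and motifs were chosen with earlier results of these data known. All 35 members were named with every entry, and of each other transport list the highest gene, the lowest active gene and every inactive gene. Medians, counts and ratios were computed, with no test. Myod1, Des, Myh2 and Acta1 are the extremes of the marker lists, the 5 markers set beside Nup210 were chosen after their values were seen, and the other genes named are annotated neighbours of members.

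Positions and lengths came from GENCODE vM1 (mm9), where 13170 of 13822 active symbols matched 1 place; all 35 members matched, Ndc1 under the name Tmem48. Copies were sought by aligning the longest transcript of each member with minimap2 2.31-r1302 in its splice mode. Promoters came from RefSeq (GRCm38.p6), with exact Clopper-Pearson intervals. Calculations were made in Python 3.11.15 with pandas 2.3.3, numpy 2.4.6, scipy 1.17.1 and matplotlib 3.10.9 and were tested on simulated data. Alternatives changed the entries used, the summary, the filter on low values, the assignment of genes to substructures, the length and the motif search; leaving out genes with overlaps or close copies was chosen after seeing the data. An alternative counted as moved when outside the 95% order-statistic interval of the median (1.43 to 2.59 over all members; for a substructure, that of its own entries, which is wide with so few), outside the binomial interval of a share, or more than 1.5 times from a count or sum.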

Additional observations from a re-analysis of the deposited data

How the results depend on the processing

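The members' median of 2.21 ranged from 2.16 to 2.34 under other choices of entries, with 2.34 both for the members with no overlapping gene on the same strand and for those with no close copy. The geometric mean with a pseudocount of 0.01, in place of the median, was 2.11. Of the 41 entries, 36 reached 1 and 37 reached the active median; counted by gene symbol, with its highest or its lowest entry, 31 of 35 reached 1. The median of the outer ring ranged from 1.87 to 2.355, that of the central channel from 2.46 to 2.57, that of the cytoplasmic face from 1.2 to 1.27 and that of the pore membrane from 1.64 to 2.16, and that of the inner ring was 1.445 or 1.47. The basket, the importins and Xpo1 have 1 entry per gene and no other assignment was tried, so their medians could not change. The ratio to the median of all active entries, 2.54, was 3.47 and 3.71 with geometric means and pseudocounts of 0.01 and 0.001, and 7.13 with inactive entries kept at 0; the last follows from its construction, since no member is inactive, and for the others the cause was not tested. With activities of at least 0.1 only, the ratio was 1.91, and for genes of at least 10 kb it was 2.46. The sum of activity times length fell from 6371 to 3465 with the shortest annotated transcript of at least 2 kb, which shortens the genes by construction. The share of promoters with a GC box was 37.5% when the sense strand alone was searched, against 68.8% on both strands, and 13 of 14 alternative motif shares stayed within their intervals. The cyclic AMP response element and the E-box read the same on both strands, so searching the sense strand alone could not change their shares. Leaving out a replicate was not possible, since the deposited values are pooled. No paired analysis was possible because the table holds a single pooled value for both libraries. For Nup210, rounding alone leaves a range of 0.005 to 0.015.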
